A study of Mus musculus with 9 samples.

Results

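The interaction of OAT-1746 and anti-PD-1 is what OAT-1746 does in the presence of the antibody minus what it does in its absence, measured here in the transcriptome of CD11b+ cells from GL261 gliomas. For each gene it was taken on the log2 scale as COMB minus anti-PD-1 minus OAT-1746 plus CTR, where COMB is the group given both agents. All protein-coding genes were members by rule, 21890 of the 53801 genes in the count table, and 12538 of them had enough counts to be tested. A negative interaction means that OAT-1746 moved a gene lower, or less far up, in the presence of the antibody.

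The mice were C57BL/6J males, 10 to 12 weeks old at the start, and all of them carried GL261 glioma cells with luciferase and tdTomato (luc+ tdT+) in the right striatum. The 2 CTR libraries came from mice on saline, and the 2 OAT-1746 libraries from mice given this arginase inhibitor by oral gavage at 50 mg/kg. The 2 anti-PD-1 libraries came from mice injected intraperitoneally with the antibody at 2.5 mg/kg between day 8 and day 14, and the 3 COMB libraries from mice given both agents. For anti-PD-1 replicate 2 the label reads anti-PD-2, and its title decided the group. The doses and days are those of the study's text, which places the collection of these cells at day 28 in the methods and at day 21 in a legend.

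Papain was used to free the cells from the side of the brain with the tumor, and poly-A RNA of the sorted CD11b+ fraction was sequenced. Whether a replicate pooled several mice is not stated. Library totals were 17490386 and 17729568 counts in CTR, 17380045 and 16784406 in OAT-1746, 14356928 and 18796479 in anti-PD-1, and 13048075, 16144518 and 14806017 in COMB. Itgam, which encodes CD11b, was detected in every library, at 302 and 370 CPM in CTR, 445 and 446 in OAT-1746, 294 and 327 in anti-PD-1, and 366, 307 and 328 in COMB. The marker of the sort was thus present in all 9 libraries. With no unsorted library to compare, its level does not measure how pure the sort was. In log2 CPM across the tested genes, OAT-1746 replicate 2 stood furthest from the rest, with a Pearson's r between 0.911 and 0.956 with each other library.

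As background, OAT-1746 blocks arginase, the enzyme with which tumor-associated myeloid cells break down arginine, and anti-PD-1 releases a brake on T cells and NK cells. An interaction asks whether the effect of a drug differs once the other drug is present. Immediate early genes are the genes a cell switches on within minutes of a stimulus, without new protein synthesis, through MAP kinase, cAMP and NF-κB signaling. In microglia and macrophages they also respond to handling, since warm enzymatic dissociation is itself known to induce them.

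Of the 12538 genes, 45 were called in the interaction (0.359%) by the quasi-likelihood test of edgeR (Benjamini-Hochberg adjusted p under 0.05), 44 with a negative and 1 with a positive value. The estimated effect of OAT-1746 was positive without the antibody and negative with it for all 44 genes, although neither effect alone passed the adjusted test in edgeR for any gene. Their median effect of OAT-1746 was 1.44 without the antibody and -0.86 with it, which gave a median interaction of -1.97 on the log2 scale. Over all tested genes the same medians were 0.01, -0.01 and -0.02. The 44 were chosen by the difference of the 2 effects, so their signs and medians describe them and test nothing. The smallest adjusted p was 0.0285, that of Egr1. An unadjusted p under 0.05 was found for 3281 genes, 1805 lower (14.4%) and 1476 higher (11.8%).

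The number of calls rested on few libraries and on the tool. It was 0 without CTR replicate 1, without CTR replicate 2, without anti-PD-1 replicate 2, without COMB replicate 2 and without COMB replicate 3, so that each call named below was lost with each of these 5. It was 2734 without OAT-1746 replicate 1 and 424 without COMB replicate 1, 26 without OAT-1746 replicate 2, with 23 of the 45 kept, and 35 without anti-PD-1 replicate 1, with 22 kept, and DESeq2 called 1025 genes (8.18% of all) and limma voom 428 (3.41%), among them all 45. The balance of the calls also depended on the tool, with 591 lower and 434 higher in DESeq2 and 342 lower and 86 higher in limma voom. Genes given below as not called that passed without OAT-1746 replicate 1 include Aurkb, Bub1b, Top2a, Nfkbia, Nfkbid, Camk2a, Rplp0, Ccl17, Clec12a, Mmp14, Fos and Tbx21, and without COMB replicate 1 Nfkbia, Nfkbid, Camk2a and Clec12a. With the replicate number as a block 0 genes were called. Where no tool is named below, a called gene is one called in edgeR. For every list below, the shares of all genes called were 0.359% in edgeR, 8.18% in DESeq2 and 3.41% in limma voom. At an unadjusted p under 0.05 the shares of all genes were 14.4% lower and 11.8% higher. In all 22 alternatives the 44 genes kept their negative sign. Those that changed only the threshold could not alter a sign, and robust estimation left the medians of all genes unchanged. The p-values measure the spread between these 9 libraries only.

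Neither of the 2 effects behind the interaction gave a call of its own in edgeR. Between OAT-1746 and CTR 0 genes were called, with a smallest adjusted p of 0.0599 in edgeR, and 4049 genes passed at an unadjusted p under 0.05, of which 2013 were higher (16.1%) and 2036 lower (16.2%). Between COMB and anti-PD-1 0 genes were called, with a smallest adjusted p of 0.206 in edgeR, and 907 genes passed at an unadjusted p under 0.05, of which 248 were higher (1.98%) and 659 lower (5.26%). DESeq2 called 1996 genes in the former comparison and 47 in the latter, 40 of these lower, and limma voom called 0 and 35. Without OAT-1746 replicate 1 edgeR called 3617 and 52 genes in the 2 comparisons, without OAT-1746 replicate 2 it called 0 and 41, without anti-PD-1 replicate 1 it called 0 and 5, and without COMB replicate 1 it called 278 and 0.

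Each called gene was sorted by its effects at an unadjusted p under 0.05. For 37 of the 45 the effect of OAT-1746 reversed, with a positive effect without the antibody and a negative effect with it. That pattern held for 208 of all 12538 tested genes, calls included. For 7 of the 45 the effect was under 0.05 only without the antibody. These were Rhobtb1, Fam160a2, Tsc22d3, Tagap, Sp4, Phf13 and, in the other direction, Ung. For 1, Tnf, it was under 0.05 only with the antibody. Both OAT-1746 libraries lay above both CTR libraries while all COMB libraries lay below both anti-PD-1 libraries for 43 of the 45 genes, as they did for 823 of all tested genes (6.56%). The calls used the same values, so nothing further is read from that count or from the number that reversed.

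**Figure D1:**
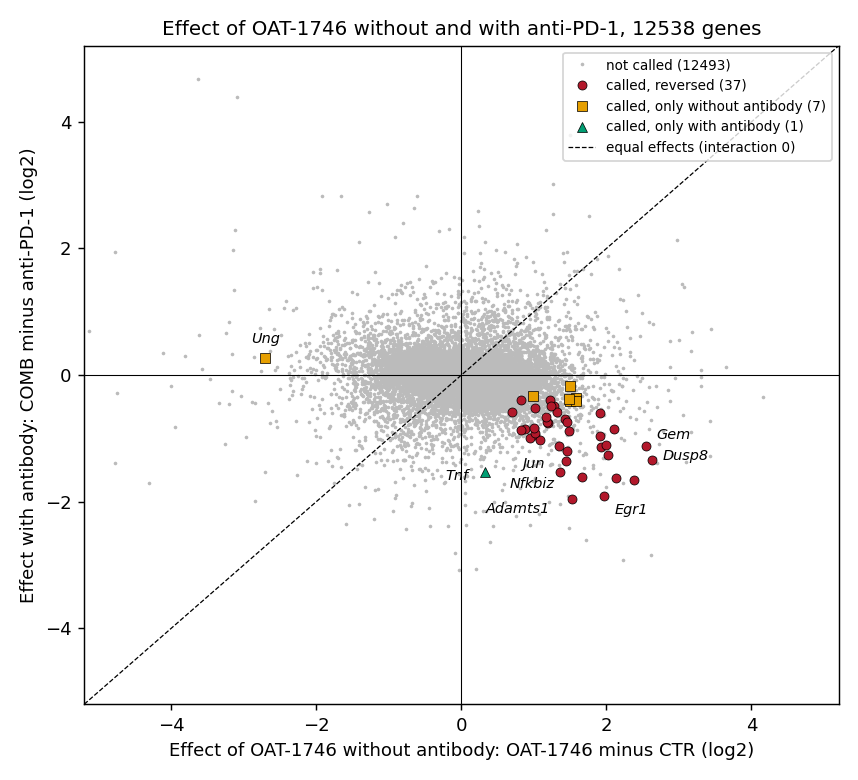
Effect of OAT-1746 without the antibody (horizontal axis, OAT-1746 minus CTR) and with it (vertical axis, COMB minus anti-PD-1), both in log2, for 12538 genes. The 37 reversed genes lie to the right of 0 and below it, Ung lies far to the left, and 6 genes fall outside the axes.

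Both OAT-1746 libraries lay above both anti-PD-1 libraries for 37 of the 44 (against 27.9% of all tested genes), and both anti-PD-1 libraries lay above both CTR libraries for 37 (against 20.6% of all). For 30 of the 44 every COMB library was under the CTR range (against 15.8% of all) and for 5 over it (against 12.1%), while the 2 groups overlapped for 9 (against 72.1%). All 3 conditions together, with OAT-1746 above anti-PD-1, anti-PD-1 above CTR and CTR above COMB, held for 17 of the 44 and for 54 of all tested genes (0.431%). The 44 genes were chosen by the same values, so these counts describe them and test nothing. OAT-1746 replicate 2 had the higher level of the 2 OAT-1746 libraries for 41 of the 44 (against 50.2% of all). The effects without the antibody ranged from 0.32 to 2.63 and those with it from -1.95 to -0.18, and the interactions from -4.03 to -1.22 with standard errors between 0.20 and 0.64.

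**Figure D2:**
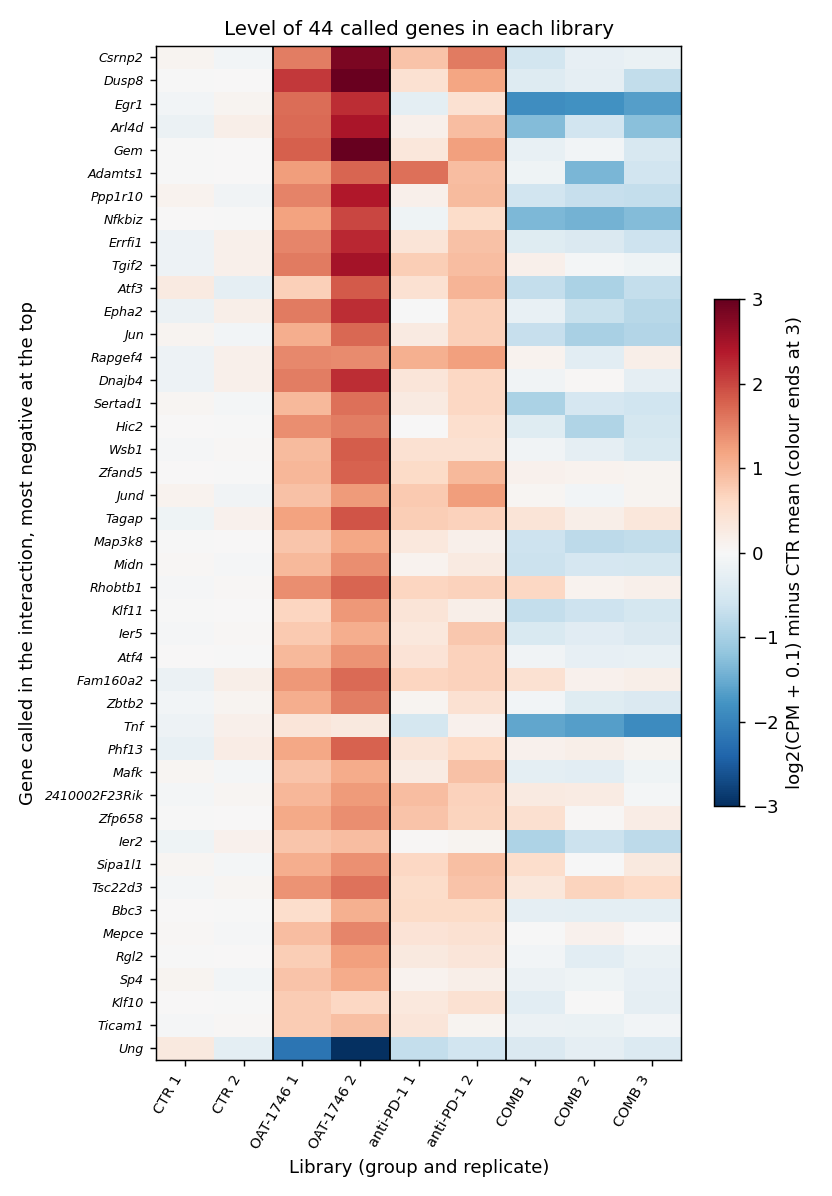
Level of 44 of the 45 called genes, Ung among them, in each of the 9 libraries, as log2 CPM (with 0.1 added) minus the mean of the CTR libraries, with the most negative interaction at the top. The OAT-1746 columns are red for all genes but Ung at the bottom, which is blue there, and most COMB cells are blue or pale.

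Egr1 (ENSMUSG00000038418, chr18:34859823-34864984 on GRCm38, plus strand), a zinc finger transcription factor and a classic immediate early gene, had the smallest p. Its level was 767 and 851 CPM in CTR, 2591 and 3730 in OAT-1746, 655 and 1117 in anti-PD-1, and 224, 231 and 256 in COMB. The 2 OAT-1746 libraries were the highest and the 3 COMB libraries the lowest of all, with no overlap between either group and the others. OAT-1746 moved Egr1 by 1.97 ± 0.28 (SE, n = 2 and 2) without the antibody and by -1.90 ± 0.24 (SE, n = 3 and 2) with it, an interaction of -3.87 ± 0.37 on the log2 scale. Each library held at least 3018 counts of it. The interaction stayed between -4.20 and -3.42 when any 1 library was left out.

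Jun, whose protein pairs with Fos to form the transcription factor AP-1, was the most abundant called gene. It stood at 1412 and 1244 CPM in CTR, 2826 and 4376 in OAT-1746, 1587 and 2184 in anti-PD-1, and 821, 671 and 718 in COMB. The order was the same as for Egr1, with COMB below and OAT-1746 above all other libraries. Its interaction was -2.80 ± 0.34 (adjusted p = 0.0289 in edgeR). Jund, its paralog, had 322 and 282 CPM in CTR, 555 and 726 in OAT-1746, 521 and 721 in anti-PD-1, and 312, 285 and 318 in COMB. For Jund the OAT-1746 and anti-PD-1 libraries overlapped, as did COMB and CTR, so that with both agents it stood at the CTR level.

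Atf3, a stress-induced repressor of the ATF/CREB family, had 367 and 256 CPM in CTR, 501 and 1093 in OAT-1746, 419 and 616 in anti-PD-1, and 188, 159 and 188 in COMB. OAT-1746 replicate 2 was well above the rest, OAT-1746 replicate 1 lay between the anti-PD-1 libraries, and all COMB libraries were lowest. Its interaction was -2.89 ± 0.48 (adjusted p = 0.0499 in edgeR, the largest among the calls). The interactions of Mafk, a small Maf factor, and of Klf10 and Klf11, which are Krüppel-like factors of the TGF-β response, were -1.84, -1.29 and -1.94. Atf4, the effector of the integrated stress response, had 109 and 109 CPM in CTR, 213 and 280 in OAT-1746, 146 and 176 in anti-PD-1, and 102, 92.1 and 93.1 in COMB. Its OAT-1746 libraries were highest and its COMB libraries lowest, without overlap, for an interaction of -1.92 ± 0.24.

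Of the listed immediate early transcription factors 21 were tested and 6 were called in edgeR, all lower (Egr1, Jun, Jund, Mafk, Klf10 and Atf3), against 0.359% of all genes. DESeq2 called 16 (against 8.18% of all genes) and limma voom 10 (against 3.41% of all). At an unadjusted p under 0.05, 17 of the 21 were lower and 0 higher, against 14.4% and 11.8% of all genes. Their median interaction was -1.84, from 0.96 without the antibody and -1.04 with it, and all 21 values were negative. Over the alternatives the median interaction ranged from -2.13 to -1.47. The median effect without the antibody was 0.30 without OAT-1746 replicate 2. Relative to the CTR mean, the median log2 level of the group was 0.38 and 1.12 in the OAT-1746 libraries, -0.05 and 0.60 in anti-PD-1, and -0.71, -0.94 and -0.70 in COMB.

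Junb and Fos, named after their values were seen because they are the most abundant members of the group, were not called in edgeR or limma voom, while DESeq2 called both. Fos had 2297 and 1803 CPM in CTR, 1883 and 3749 in OAT-1746, 1760 and 2128 in anti-PD-1, and 854, 968 and 1020 in COMB. Only OAT-1746 replicate 2 was raised, while all 3 COMB libraries were below every other library. The interaction of Fos was -1.49 (adjusted p = 0.102 in edgeR and 0.0142 in DESeq2) and that of Junb -1.11 (adjusted p = 0.112 in edgeR and 0.0285 in DESeq2). Fos was at -0.90 without OAT-1746 replicate 2 and Junb at -0.68 without anti-PD-1 replicate 2. Of the 27 other immediate early genes tested, 3 were called in edgeR, all lower (Errfi1, Ier2 and Ier5), 10 in DESeq2 and 5 in limma voom, 13 were lower and 0 higher at an unadjusted p under 0.05, and the median interaction was -0.84.

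**Figure D3:**
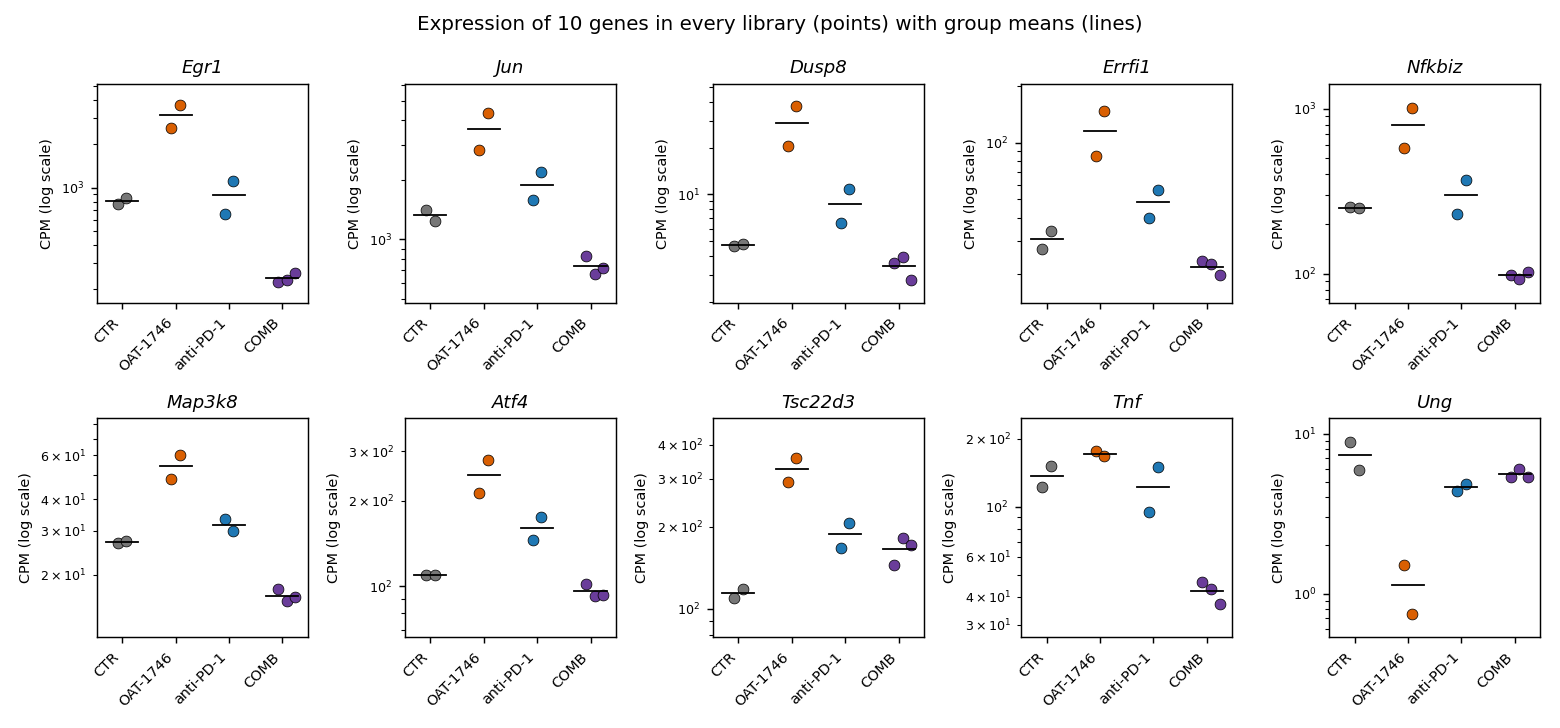
Level of 10 called genes in each library (points, CPM on a log scale) with the mean of each group (lines), 2 per group and 3 for COMB. For Egr1, Jun, Dusp8, Errfi1, Nfkbiz, Map3k8 and Atf4 the OAT-1746 libraries are highest and the COMB libraries lowest, Tsc22d3 and Ung differ from the other groups in OAT-1746, and Tnf is low in COMB.

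Dusp8, a phosphatase that switches off the stress-activated MAP kinases JNK and p38, had the most negative interaction among called genes with a mean of at least 5 CPM. Its level was 4.63 and 4.76 CPM in CTR, 20.7 and 37.5 in OAT-1746, 6.48 and 10.8 in anti-PD-1, and 3.56, 3.89 and 2.76 in COMB. The OAT-1746 libraries stood above all others and the COMB libraries below all others. The interaction was -3.97 ± 0.47. Errfi1, a feedback inhibitor of the EGF receptor, had 27.4 and 33.9 CPM in CTR, 84.9 and 147 in OAT-1746, 39.998 and 56.4 in anti-PD-1, and 23.5, 22.6 and 19.8 in COMB. The groups of Errfi1 did not overlap, and its interaction was -3.05 ± 0.37. Among 19 MAP kinase phosphatases and feedback inhibitors tested, Dusp8 was the only call in edgeR, DESeq2 called 4 and limma voom 3, 8 were lower and 0 higher at an unadjusted p under 0.05, and the median interaction was -0.81. Dusp1, the most abundant of them, had an interaction of -0.60, was called by none of the 3 tools, and was at -0.37 without OAT-1746 replicate 2 and -0.24 without anti-PD-1 replicate 1.

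Map3k8, the kinase that links toll-like receptors and TNF to ERK, had 26.7 and 27.3 CPM in CTR, 48.4 and 60.3 in OAT-1746, 33.4 and 29.9 in anti-PD-1, and 17.6, 15.7 and 16.2 in COMB. The 4 groups did not overlap, and the interaction was -1.95 ± 0.22. Epha2, a receptor tyrosine kinase for ephrins, had 49.4 and 63.2 CPM in CTR, 165 and 260 in OAT-1746, 55.0 and 92.4 in anti-PD-1, and 47.7, 34.8 and 31.5 in COMB. CTR and anti-PD-1 overlapped for Epha2, OAT-1746 was highest and COMB lowest, and the interaction was -2.87 ± 0.42. Ier2 and Ier5, nuclear proteins of the immediate early class, had interactions of -1.73 and -1.94.

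Promoters are shown for the called immediate early genes with the smallest p that the sequence table held and that could be printed, since these genes moved together. RefSeq on GRCm38.p6 gave an entry of 300 bases, 250 before the start site and 50 from it on, for 36 of the 45 called genes and for 6 of the 9 called immediate early genes. Egr1, Ier2 and Klf10 had no entry. The motifs searched were CRE (TGACGTCA), EGR (GCGNGGGCG), AP-1, TATA and the CArG box, on both strands, and no matches overlapped in the sequences shown. Capitals mark matches. Errfi1 had a pair of entries, of which the one shown is chr4:150854820-150855119 (plus strand), and the other held no match. Jun is chr4:95052173-95052472 (minus strand), Jund is chr8:70697489-70697788 (plus strand) and Ier5 is chr1:155099587-155099886 (minus strand), each written 5′ to 3′. The start site used for Errfi1 lies 1151 bases downstream of the start of its gene in GENCODE, and that for Jund lies upstream of it (-1210).
Errfi1: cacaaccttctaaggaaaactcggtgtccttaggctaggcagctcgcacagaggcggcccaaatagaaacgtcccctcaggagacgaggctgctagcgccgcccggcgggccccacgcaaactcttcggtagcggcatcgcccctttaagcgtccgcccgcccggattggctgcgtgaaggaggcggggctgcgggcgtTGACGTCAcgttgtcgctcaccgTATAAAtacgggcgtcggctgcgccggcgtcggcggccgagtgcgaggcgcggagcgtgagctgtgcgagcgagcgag
Jun: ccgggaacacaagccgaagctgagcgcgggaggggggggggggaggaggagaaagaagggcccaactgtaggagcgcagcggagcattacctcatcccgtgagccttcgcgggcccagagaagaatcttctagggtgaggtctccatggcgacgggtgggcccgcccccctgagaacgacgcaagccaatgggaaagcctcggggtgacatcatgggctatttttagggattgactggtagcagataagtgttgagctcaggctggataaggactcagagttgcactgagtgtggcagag
Jund: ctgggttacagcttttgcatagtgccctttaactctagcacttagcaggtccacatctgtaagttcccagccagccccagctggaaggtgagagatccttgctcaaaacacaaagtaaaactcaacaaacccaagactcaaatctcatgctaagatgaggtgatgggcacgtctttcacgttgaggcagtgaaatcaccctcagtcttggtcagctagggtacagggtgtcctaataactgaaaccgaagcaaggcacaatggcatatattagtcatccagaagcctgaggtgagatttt
Ier5: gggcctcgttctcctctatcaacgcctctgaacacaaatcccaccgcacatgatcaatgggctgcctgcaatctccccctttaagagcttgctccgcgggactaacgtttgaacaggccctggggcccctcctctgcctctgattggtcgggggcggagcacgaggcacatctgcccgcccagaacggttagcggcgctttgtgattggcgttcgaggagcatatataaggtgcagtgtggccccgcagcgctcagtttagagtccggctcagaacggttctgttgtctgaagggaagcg

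In the Errfi1 promoter the CRE lay from -51 to -44 and the TATA motif from -28 to -23 relative to the start site, and in the windows shown for Jun, Jund and Ier5 none of the 5 motifs was found. Among all 32851 promoters of this length, CRE was found in 1.79%, AP-1 in 7.81%, EGR in 5.55%, TATA in 13.6% and the CArG box in 1.63%. Of the 36 called genes with an entry, 6 held CRE in at least 1 entry (Dusp8, Errfi1, Arl4d, Hic2, Epha2 and Wsb1), 7 held EGR, 7 held TATA, and 0 held AP-1 or the CArG box. The 36 genes had 48 entries between them, of which 6 held CRE. A match is a description of letters in this window and says nothing about a factor bound there.

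Nfkbiz encodes IκBζ, a nuclear IκB protein that directs NF-κB to secondary response genes. It had 253 and 250 CPM in CTR, 580 and 1013 in OAT-1746, 230 and 368 in anti-PD-1, and 98.6, 93.2 and 103 in COMB. The OAT-1746 libraries were highest and the COMB libraries lowest, while CTR lay between the 2 anti-PD-1 libraries. The interaction was -3.27 ± 0.39. Of 20 NF-κB subunits and inhibitors tested Nfkbiz was the only call in edgeR, DESeq2 called 5 and limma voom 4, 9 were lower and 0 higher at an unadjusted p under 0.05, and the median was -0.13, from -0.42 without OAT-1746 replicate 2 to -0.07 without OAT-1746 replicate 1, and -0.01 with the length and GC correction. Nfkbia and Nfkbid, inhibitors that the study names, had interactions of -1.36 and -3.17 (adjusted p = 0.0711 and 0.0662 in edgeR). Both were called in DESeq2 (adjusted p = 0.000336 and 5.46e-05) and in limma voom (adjusted p = 0.0405 and 0.0341).

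Tnf, the inflammatory cytokine, was the exception among the called genes. It had 123 and 151 CPM in CTR, 176 and 167 in OAT-1746, 94.98 and 150 in anti-PD-1, and 46.5, 43.2 and 36.9 in COMB. The 3 COMB libraries were far below all others, while OAT-1746 lay just above CTR. OAT-1746 moved it by 0.32 without the antibody and by -1.54 with it. Its interaction of -1.86 ± 0.31 passed narrowly (adjusted p = 0.0495 in edgeR). Of the 17 cytokines tested no other was called in edgeR, DESeq2 called 4 and limma voom 2, 5 were lower and 1 higher at an unadjusted p under 0.05, and the median was -0.02, a sign that changed in 6 alternatives, with 0.12 without OAT-1746 replicate 1 and -0.20 without OAT-1746 replicate 2. It was -0.35 with the length and GC correction and -0.46 with the replicate block added. Ticam1, the adaptor TRIF of the toll-like receptors, was called at -1.22.

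Several called genes regulate small GTPases. Gem, a GTPase that restrains calcium channels, had 12.3 and 12.5 CPM in CTR, 43.0 and 101 in OAT-1746, 15.6 and 29.4 in anti-PD-1, and 10.5, 11.7 and 8.79 in COMB. OAT-1746 was highest and COMB lowest without overlap, and OAT-1746 replicate 2 stood well above replicate 1. The interaction of Gem was -3.67 ± 0.55. Arl4d, a small GTPase of the ARF family, had 6.07 and 7.76 CPM in CTR, 22.5 and 38.2 in OAT-1746, 7.67 and 13.2 in anti-PD-1, and 2.74, 4.55 and 2.84 in COMB, with an interaction of -3.75 ± 0.50. CTR and anti-PD-1 overlapped for Arl4d and the other groups stood apart. Rapgef4 and Rgl2, exchange factors for Rap and Ral, were called at -2.65 and -1.54, and Sipa1l1, which switches Rap off, at -1.72.

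Of the 45 genes 15 belong to a listed role group and 30 to none, and the order by role used here was made after the values were seen. A further set of called genes acts in the nucleus. Ppp1r10, a targeting subunit of protein phosphatase 1, had 107 and 91.7 CPM in CTR, 280 and 524 in OAT-1746, 111 and 191 in anti-PD-1, and 66.7, 61.4 and 59.98 in COMB. The 4 groups did not overlap, OAT-1746 replicate 2 was the highest library, and the interaction was -3.29 ± 0.43. Tgif2, a homeobox repressor of TGF-β signaling, had 10.99 and 13.7 CPM in CTR, 36.4 and 69.5 in OAT-1746, 20.6 and 23.5 in anti-PD-1, and 13.7, 11.9 and 11.2 in COMB. COMB and CTR overlapped for Tgif2, so that with both agents it stood at the CTR level, and its interaction was -2.95 ± 0.39.

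Other nuclear proteins among the calls were the zinc finger proteins Hic2 (-2.37), Zbtb2 (-1.90) and Zfp658 (-1.77), the methyl phosphate capping enzyme Mepce of 7SK RNA (-1.61), the PHD finger protein Phf13 (-1.85) and the transcription factor Sp4 (-1.31). Sertad1, a regulator of CDK4 and E2F, had 40.3 and 36.6 CPM in CTR, 75.025 and 121 in OAT-1746, 46.1 and 58.7 in anti-PD-1, and 19.9, 27.2 and 25.3 in COMB. The groups of Sertad1 did not overlap and its interaction was -2.47 ± 0.33. Csrnp2, a nuclear protein rich in cysteine and serine, had the most negative value of all at -4.03 ± 0.64, but few counts, between 14 and 28 in the CTR and COMB libraries. Midn, which carries nuclear proteins to the proteasome, was called at -1.94.

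Stress and cell surface genes were also among the 44. Dnajb4, a co-chaperone of Hsp70, had 11.9 and 14.8 CPM in CTR, 38.9 and 61.7 in OAT-1746, 17.002 and 20.3 in anti-PD-1, and 12.4, 13.5 and 11.1 in COMB. Its COMB and CTR libraries overlapped, anti-PD-1 lay above both and OAT-1746 was highest, for an interaction of -2.51 ± 0.33. Of the 20 heat shock and chaperone genes tested it was the only call in edgeR. DESeq2 called 4 (against 8.18% of all genes) and limma voom 4 (against 3.41% of all). At an unadjusted p under 0.05, 7 were lower (against 14.4% of all) and 0 higher (against 11.8% of all). The median was -0.21, which was -0.45 without CTR replicate 1 and turned positive without CTR replicate 2 (0.11) and without anti-PD-1 replicate 2 (0.23). Bbc3, the p53 target PUMA that triggers apoptosis, was called at -1.68, and Zfand5 and Wsb1, which act in protein degradation, at -2.12 and -2.19. Adamts1, a secreted protease that trims proteoglycans, had 21.7 and 22.0 CPM in CTR, 52.4 and 73.6 in OAT-1746, 69.4 and 41.9 in anti-PD-1, and 20.1, 8.45 and 14.6 in COMB. OAT-1746 and anti-PD-1 overlapped for Adamts1, COMB was lowest, and the interaction was -3.48 ± 0.51.

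The genes with an effect only without the antibody were set apart by a threshold on p, and in all of the 6 lower ones but Tsc22d3 every COMB library still lay below both anti-PD-1 libraries. Tsc22d3 encodes GILZ, a glucocorticoid-induced brake on inflammation. It had 110 and 119 CPM in CTR, 292 and 356 in OAT-1746, 168 and 207 in anti-PD-1, and 144, 181 and 172 in COMB. COMB overlapped anti-PD-1, CTR lay below both, and OAT-1746 lay above all. OAT-1746 moved it by 1.50 without the antibody and by -0.18 with it, an interaction of -1.68 ± 0.25. Tagap, a GTPase activating protein of lymphoid and myeloid cells, went from 1.59 to -0.40, Rhobtb1, an atypical GTPase, from 1.58 to -0.36, and Fam160a2, a protein of endosome transport, from 1.50 to -0.40. Without the antibody the effects of Sp4 and Phf13 were 0.99 and 1.48, and with it they were -0.32 and -0.37. The last of the 44, 2410002F23Rik, was called at -1.82 and belongs to the reversed genes.

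Ung, the uracil DNA glycosylase of base excision repair, was the only gene with a positive interaction among the calls. It had 8.89 and 5.88 CPM in CTR, 1.51 and 0.744 in OAT-1746, 4.39 and 4.85 in anti-PD-1, and 5.34, 6.01 and 5.39 in COMB. OAT-1746 was lowest, and the COMB libraries lay above anti-PD-1 and overlapped CTR. OAT-1746 moved it by -2.70 ± 0.37 without the antibody and by 0.27 ± 0.31 with it, an interaction of 2.97 ± 0.48 (adjusted p = 0.0477 in edgeR). The OAT-1746 libraries held 26 and 13 counts of it, so that its low level is less precisely known than those of the genes above. With a mean of 4.78 CPM it lies under the minimum of 5 for named genes, as do Csrnp2 and Rapgef4, and it is described because it stands alone.

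The genes that OAT-1746 alone moved, called genes included, had effects close to 0, and on balance of the opposite sign, when the antibody was present. The 2 effects share no library. Among the 2013 genes higher in OAT-1746 than in CTR at an unadjusted p under 0.05, with a median of 0.82, the median effect with the antibody was -0.13, and 32.4% had a positive effect against 48.7% of all genes. Of them 20 were higher (0.994%, against 1.98% of all genes) and 208 lower (10.3%, against 5.26%) at an unadjusted p under 0.05 with the antibody. Among the 2036 genes lower in OAT-1746, with a median of -0.76, the median with the antibody was 0.10, and 65.9% had a positive effect. Of these 37 were higher (1.82%, against 1.98% of all genes) and 46 lower (2.26%, against 5.26%) at the same threshold. Across genes the 2 effects had a Pearson's r of -0.0863, which ranged from -0.213 without COMB replicate 1 to 0.0356 without anti-PD-1 replicate 1. Genes are not independent replicates, so these values carry no p.

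**Figure D4:**
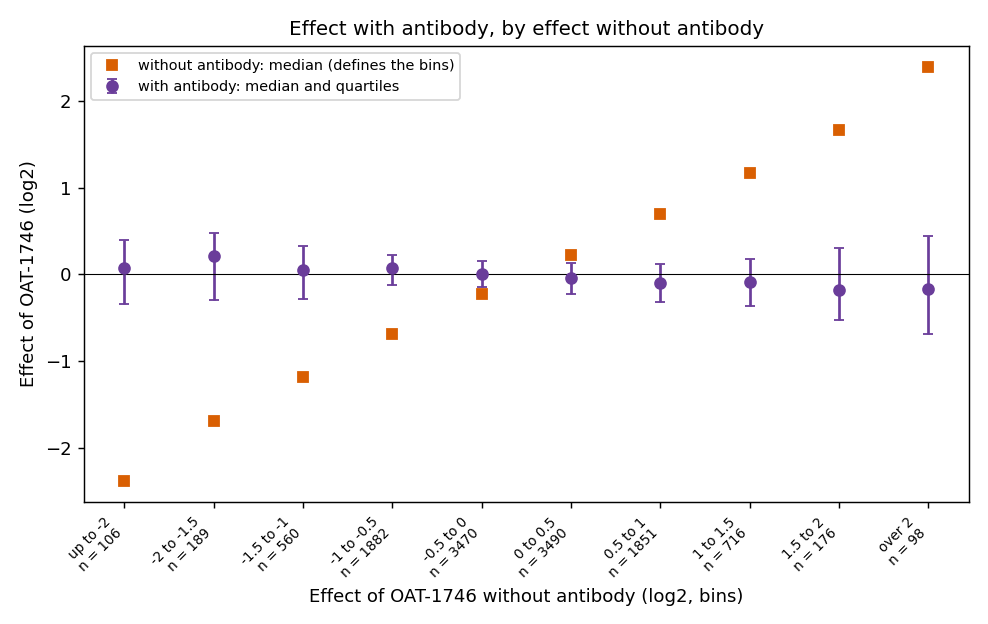
Median effect of OAT-1746 with the antibody (purple points, with bars from the lower to the upper quartile) for genes grouped by their effect without it (orange squares, the median of each bin), both in log2. In the 98 genes with an effect over 2 without the antibody the median with it was -0.17, and in the 106 genes at or under -2 it was 0.08.

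Read from the other side, the 659 genes that stood lower with both agents than with the antibody had a median effect of OAT-1746 alone of 0.24, with 208 of them higher (31.6%, against 16.1% of all genes) and 46 lower (6.98%, against 16.2%). The 248 genes higher in COMB had a median of -0.02, with 20 higher (8.06%, against 16.1%) and 37 lower (14.9%, against 16.2%). Each count shares its genes with the interaction, which uses both effects, and none was tested. The medians with the antibody depended on single libraries. For the genes higher in OAT-1746 the median was -0.24 without COMB replicate 1, -0.06 without CTR replicate 2, -0.07 without COMB replicate 2 and -0.03 without COMB replicate 3, where 46.0% were positive. For the genes lower in OAT-1746 it was 0.22 without COMB replicate 1, 0.05 without OAT-1746 replicate 1, 0.03 without anti-PD-1 replicate 1 and 0.01 without COMB replicate 2. With the replicate block and the length and GC correction the medians were -0.05 and 0.02.

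The list of genes reported to rise while microglia are dissociated enzymatically moved with the result. All 30 were tested. DESeq2 called 23 (against 8.18% of all genes), limma voom 18 (against 3.41% of all) and edgeR 9 (against 0.359% of all). The 9 were all lower (Atf3, Egr1, Gem, Ier2, Ier5, Jun, Jund, Nfkbiz and Tnf). At an unadjusted p under 0.05, 25 were lower (against 14.4% of all) and 0 higher (against 11.8% of all). The median interaction was -1.74. Of the 30 genes 12 are also in the lists of immediate early genes. Their summed level was 18395 and 17575 CPM in CTR, 26293 and 35744 in OAT-1746, 17946 and 23337 in anti-PD-1, and 11324, 12786 and 12720 in COMB, with Rhob as the most abundant gene and no gene at 0. Every library was dissociated, and the OAT-1746 libraries were highest and the COMB libraries lowest. The part of dissociation in the result was not tested.

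Most groups with a positive median interaction held no called gene in edgeR. Of the 82 ribosomal protein genes tested, 77 were higher and 0 lower at an unadjusted p under 0.05, all 82 values were positive, and the median was 0.93, from -0.77 without the antibody and 0.20 with it. DESeq2 called 50 of them and limma voom 6. Over the alternatives the median interaction stayed between 0.62 and 1.19. The median with the antibody was 0.07 without COMB replicate 2, 0.31 without COMB replicate 1 and 0.10 with the length and GC correction. Rplp0, the most abundant, had 2211 and 2075 CPM in CTR, 1419 and 893 in OAT-1746, 1888 and 1826 in anti-PD-1, and 1778, 2417 and 2146 in COMB. The OAT-1746 libraries of Rplp0 were lowest, and its interaction was 1.08 (adjusted p = 0.113 in edgeR), or 0.69 with the length and GC correction. The 50 ribosome biogenesis factors had a median of 0.42, with 11 higher (against 11.8% of all genes) and 1 lower (against 14.4% of all) at an unadjusted p under 0.05. DESeq2 called 2 of them, fewer than its share of all genes (8.18%), and limma voom 2 (against 3.41% of all). The length and GC correction took this median to 0.24, and to 0.23 with the replicate block.

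Cell cycle genes also had positive medians and no call in edgeR. Of 53 G2/M genes tested, 29 were higher and 0 lower at an unadjusted p under 0.05 and the median interaction was 1.56, from -1.36 without the antibody and 0.24 with it. Relative to CTR the median log2 level of the group was -0.78 and -2.15 in the OAT-1746 libraries, -0.91 and -0.47 in anti-PD-1, and -0.59, -0.39 and -0.45 in COMB. Both antibody groups thus lay below CTR, OAT-1746 replicate 1 lay between the anti-PD-1 libraries, and OAT-1746 replicate 2 was lowest by far. The median interaction was 0.98 without OAT-1746 replicate 2 and 2.64 without OAT-1746 replicate 1. In these 2 fits the median effect without the antibody was -0.80 and -2.34. The median effect with the antibody was 0.08 without anti-PD-1 replicate 1 and 0.46 without anti-PD-1 replicate 2. Of 43 S phase genes 25 were higher and 0 lower, with a median of 1.25. DESeq2 called 16 of the G2/M and 15 of the S phase genes, and limma voom 7 and 6. Aurkb and Bub1b, mitotic kinases that the study names, had interactions of 2.05 and 1.83 (adjusted p = 0.0958 and 0.0885 in edgeR), and Top2a 1.61 (adjusted p = 0.206 in edgeR). Top2a was at 0.98 without OAT-1746 replicate 2, 2.44 without anti-PD-1 replicate 2 and 2.81 without OAT-1746 replicate 1.

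Genes of antigen presentation and metabolism also had positive medians without a call in edgeR. Of 10 MHC class II genes 7 were higher and 0 lower at an unadjusted p under 0.05, with a median of 1.43, and DESeq2 called 7 and limma voom 3. Cd74, the invariant chain and the most abundant of them, had 13815 and 7615 CPM in CTR, 4426 and 3999 in OAT-1746, 6278 and 8991 in anti-PD-1, and 6138, 11748 and 12277 in COMB. Its OAT-1746 libraries were lowest, while COMB overlapped both CTR and anti-PD-1, with COMB replicate 1 at the low end. Of 23 genes of hypoxia and glycolysis 12 were higher and 2 lower, with a median of 1.14, and DESeq2 called 5 and limma voom 0. In Gapdh COMB replicates 2 and 3 (2681 and 2515 CPM) stood above the other 7 libraries (at most 1605). Cholesterol synthesis and uptake had a median of 0.70 (8 of 19 higher, 0 lower), and cholesterol efflux and lipid handling had a median of 0.69 (4 of 16 higher, 1 lower). In each of these 2 groups DESeq2 called 2 genes (against 8.18% of all genes) and limma voom 1 (against 3.41% of all). Of all genes 11.8% were higher and 14.4% lower at an unadjusted p under 0.05. Without OAT-1746 replicate 2 the median of hypoxia and glycolysis was 0.70 and that of cholesterol efflux 0.24, and the latter was 0.37 without CTR replicate 2 and 0.43 without anti-PD-1 replicate 2.

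**Figure D5:**
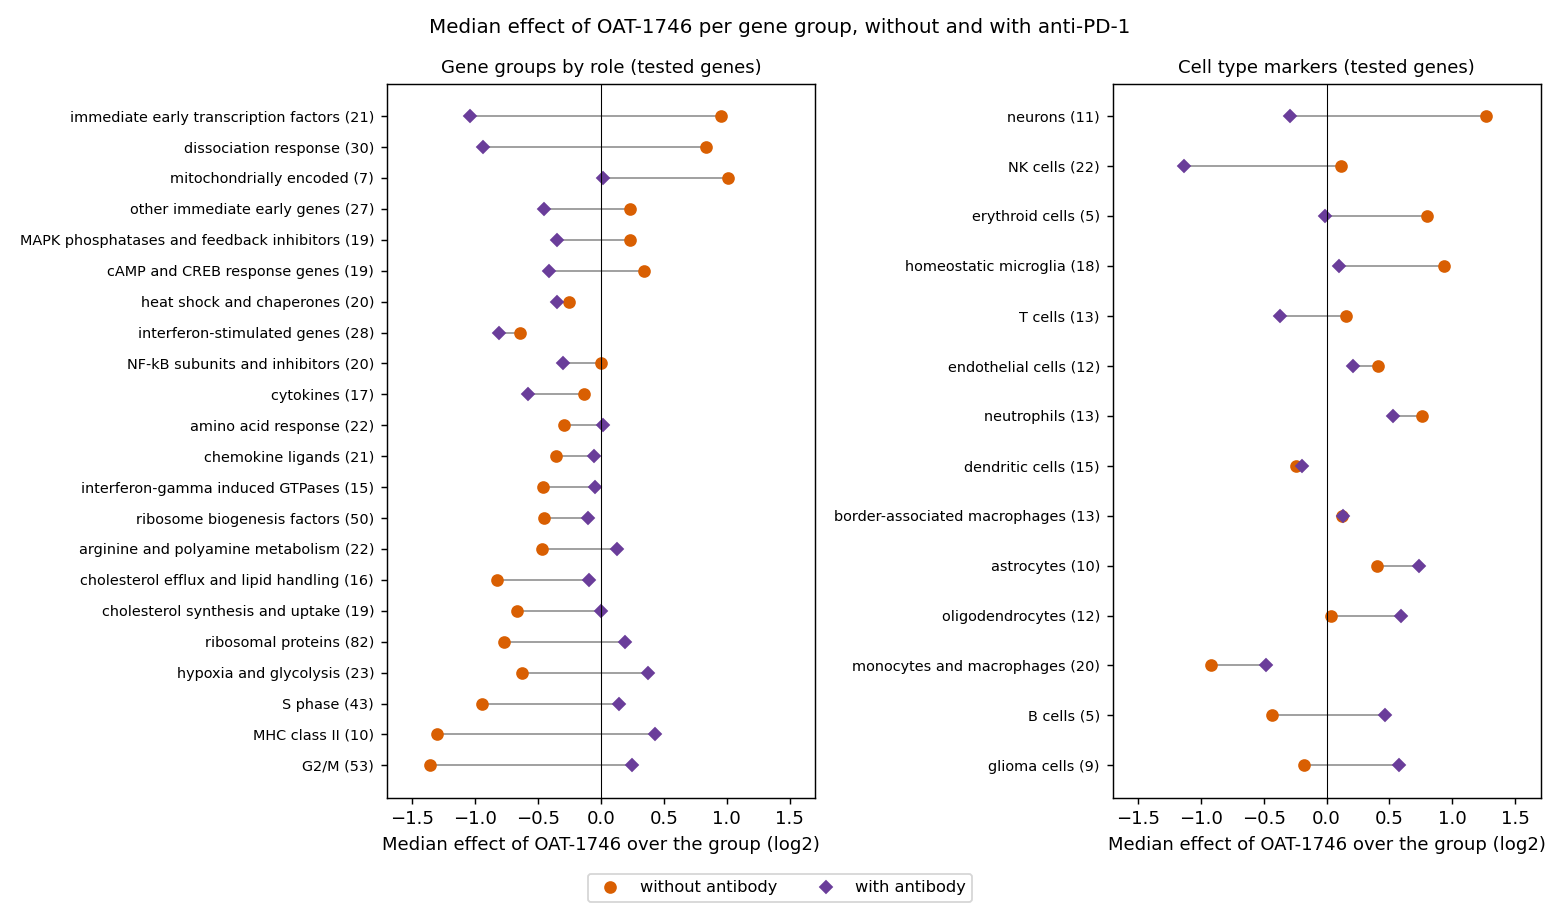
Median effect of OAT-1746 over the tested genes of each group (number in brackets), without the antibody (orange circles) and with it (purple diamonds), in log2. Immediate early transcription factors have the medians 0.96 and -1.04, and G2/M genes -1.36 and 0.24. The 0.96, -1.36 and 0.24 depended on single libraries, as given in the text.

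Arginase is the target of OAT-1746, so genes of arginine metabolism are given although none was called in edgeR. Of the 22 genes of arginine and polyamine metabolism tested 0 were called in edgeR and limma voom and 2 in DESeq2 (against 8.18% of all genes), 6 were higher (against 11.8% of all) and 2 lower (against 14.4% of all) at an unadjusted p under 0.05, and the median was 0.50. Ass1, which rebuilds arginine from citrulline, was the most abundant, with 27.0 CPM in OAT-1746 replicate 2 and between 244 and 554 in the other libraries. For the amino acid response, 1 of 22 genes was called in edgeR (Atf4), 6 in DESeq2 and 3 in limma voom, 4 were lower and 6 higher, and the median was 0.17, from -0.04 without CTR replicate 2 to 0.41 without CTR replicate 1.

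Further groups held no call in edgeR. For 19 genes of the cAMP and CREB response the median interaction was -0.60, with 6 lower and 0 higher at an unadjusted p under 0.05, DESeq2 called 4 and limma voom 0, and the median was -0.37 without anti-PD-1 replicate 2. For 21 chemokine ligands, with Cxcl9 as the most abundant, 3 were lower (against 14.4% of all genes) and 5 higher (against 11.8% of all). DESeq2 called 4 (against 8.18% of all) and limma voom 2 (against 3.41% of all). Their median interaction was 0.22 and turned negative with the length and GC correction, alone (-0.28) or with the replicate block (-0.23). It was 0.77 without OAT-1746 replicate 1 and 0.01 without OAT-1746 replicate 2. For 28 interferon-stimulated genes it was -0.16 with 0 lower and 0 higher, and for 15 GTPases induced by interferon-γ 0.31 with 0 lower and 1 higher, and DESeq2 and limma voom called 0 in either. The interferon-stimulated genes summed to 5258 and 6230 CPM in CTR, 5906 and 1371 in OAT-1746, 8545 and 8340 in anti-PD-1, and 4541, 5091 and 5156 in COMB, with Irf7 as the most abundant. Their median was 1.31 without OAT-1746 replicate 1 and -0.78 without OAT-1746 replicate 2, and that of the GTPases, led by Gbp2, was 1.69 and -0.13. In limma voom the 2 medians were 0.14 and 0.69.

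Markers of cell types were counted to show which populations moved with the contrast. Of the 18 markers of homeostatic microglia, 8 were lower and 0 higher at an unadjusted p under 0.05 and 0 were called in edgeR, DESeq2 and limma voom, and all 18 were higher with OAT-1746 alone at an unadjusted p under 0.05. Their median was 0.93 without the antibody, 0.10 with it and -0.91 for the interaction, which was -0.57 without CTR replicate 1. The median with the antibody was -0.09 without COMB replicate 1, 0.24 without COMB replicate 3 and 0.03 without anti-PD-1 replicate 2. Their summed level was 27237 and 40359 CPM in CTR, 54541 and 66622 in OAT-1746, 40036 and 33792 in anti-PD-1, and 46937, 35481 and 34612 in COMB, with Csf1r as the most abundant gene and no marker at 0. The OAT-1746 libraries were thus highest, but COMB overlapped CTR and anti-PD-1 and was not low. In bulk RNA fewer cells of a type and less RNA per cell cannot be told apart, and the part of cell composition in the result was not tested.

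The 20 markers of monocytes and macrophages had a median interaction of 0.66, with 1 lower and 1 higher at an unadjusted p under 0.05 and 0 called in edgeR, DESeq2 and limma voom. Their summed level was 15467 and 14428 CPM in CTR, 11029 and 2213 in OAT-1746, 14284 and 17113 in anti-PD-1, and 11297, 13790 and 14481 in COMB, with Tgfbi as the most abundant gene and no marker at 0. OAT-1746 replicate 2 was lowest by far, and without it the median was -0.08, while without OAT-1746 replicate 1 it was 2.09 and with the length and GC correction 0.35. The part of these cells in the result was not tested. The 13 border-associated macrophage markers had a median of 0.20 and the 15 dendritic cell markers 0.11, with Apoe and Irf8 as their most abundant genes and 0 called in edgeR, DESeq2 calling 2 and 1 and limma voom 1 and 0, and the sign of the latter changed in 5 alternatives. The former was 0.63 without OAT-1746 replicate 1 and 0.65 in limma voom, and the latter ranged from -0.29 without anti-PD-1 replicate 2 to 0.43 without CTR replicate 1.

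NK cell markers had their highest level in anti-PD-1. Of 22 tested, 4 were lower (against 14.4% of all genes) and 0 higher (against 11.8% of all) at an unadjusted p under 0.05, 0 were called in edgeR, 2 in DESeq2 (against 8.18% of all) and 1 in limma voom (against 3.41% of all), and the median was -1.14, from 0.11 without the antibody and -1.13 with it. Their summed level was 97.4 and 104 CPM in CTR, 139 and 37.1 in OAT-1746, 441 and 255 in anti-PD-1, and 113, 210.1 and 225 in COMB, with Klrk1 as the most abundant gene and no marker at 0. The anti-PD-1 libraries were highest and every COMB library lay below them. Tbx21, the transcription factor of NK and type 1 T cells, had 1.201 and 0.471 CPM in CTR, 1.46 and 2.06 in OAT-1746, 5.64 and 4.40 in anti-PD-1, and 1.04, 1.39 and 0.851 in COMB. COMB overlapped CTR and OAT-1746 lay above both, while anti-PD-1 stood apart, for an interaction of -3.26 ± 0.66 (adjusted p = 0.0719 in edgeR, while DESeq2 gave 0.00133 and limma voom 0.0428). At these low levels Tbx21 is known less precisely than abundant genes. Tbx21 and Klre1 were the 2 DESeq2 calls. Klrk1, Nkg7, Gzma and Prf1 were called in none of edgeR, DESeq2 and limma voom (adjusted p = 0.957, 0.276, 0.498 and 0.421 in DESeq2). The part of NK cells in the result was not tested. The median interaction of the list was -0.24 without OAT-1746 replicate 1, -1.67 without OAT-1746 replicate 2 and -0.66 without anti-PD-1 replicate 1. The median effect without the antibody was -0.98 without OAT-1746 replicate 1, so that its sign turned, and 0.60 without OAT-1746 replicate 2. The median effect with the antibody was -0.47 without anti-PD-1 replicate 1.

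Markers of cells that the sort should remove were also detected. Their summed level lay between 303 and 508 CPM for oligodendrocytes, 208 and 387 for B cells and 148 and 263 for endothelial cells. It lay between 130 and 271 CPM for astrocytes, 55.0 and 105 for T cells and 60.2 and 96.7 for glioma cells. The most abundant gene averaged 132 CPM for oligodendrocytes (Cnp), 219 for B cells (Ighm) and 42.9 for endothelial cells (Flt1). For astrocytes it averaged 93.3 (Slc1a3), for T cells 52.7 (Il7r) and for glioma cells 43.0 (Dbi). Single genes thus made up a large part of several sums, and which cells they came from was not tested. The summed level of 12 neuron markers was 17.9 and 31.4 CPM in CTR, 59.8 and 56.8 in OAT-1746, 22.9 and 26.3 in anti-PD-1, and 20.7, 15.1 and 18.1 in COMB, with no marker at 0, so that OAT-1746 was highest here too. Of 11 tested, 5 were lower and 0 higher at an unadjusted p under 0.05, 0 were called in edgeR, 3 in DESeq2 and 2 in limma voom, and the median was -1.58. Camk2a, the most abundant, had an interaction of -1.91 (adjusted p = 0.0662 in edgeR). The part of neuronal RNA in the result was not tested. Medians of other marker lists were -0.53 for T cells, 0.79 for B cells, 0.53 for oligodendrocytes, 0.43 for astrocytes, -0.34 for endothelial cells, 0.08 for neutrophils and 1.05 for glioma cells. They rested on single libraries. T cells ranged from -1.33 without COMB replicate 1 to 0.40 without anti-PD-1 replicate 1, B cells from -0.12 without CTR replicate 1 to 1.35 without anti-PD-1 replicate 1, and oligodendrocytes from 0.21 without anti-PD-1 replicate 2 to 1.09 without anti-PD-1 replicate 1. Without CTR replicate 2 and without CTR replicate 1 the median was -0.18 and 0.88 for astrocytes, -0.77 and 0.75 for neutrophils and 0.43 and 1.31 for glioma cells. Endothelial cells ranged from -0.75 without anti-PD-1 replicate 2 to 0.52 without anti-PD-1 replicate 1.

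Of the 39 genes that the study names in these cells, which it chose on these libraries, 2 were called in edgeR (Nfkbiz and Tgif2), 14 in DESeq2 and 7 in limma voom, 10 were lower and 15 higher at an unadjusted p under 0.05, and the median interaction was 0.19, which was 0.57 without OAT-1746 replicate 1 and 0.02 with the replicate block and the length and GC correction. Ccl17, a chemokine for T cells, had 6.01 and 3.41 CPM in CTR, 1.46 and 1.43 in OAT-1746, 5.16 and 3.32 in anti-PD-1, and 5.41, 7.06 and 5.25 in COMB. OAT-1746 was lowest, and the interaction was 2.19 (adjusted p = 0.0838 in edgeR). Clec12a, an inhibitory lectin of myeloid cells, had an interaction of 1.74 and Mmp14, a membrane protease, 1.58, neither of them called in edgeR. Mmp14 was at 0.98 without OAT-1746 replicate 2 and at 2.68 without OAT-1746 replicate 1. Those of Cd86, Tlr4, Cxcr4 and Ccl2 lay near 0, at -0.11, 0.19, -0.04 and -0.07. Without OAT-1746 replicate 1 Cxcr4 and Ccl2 were at 0.58 and 0.57, and without OAT-1746 replicate 2 at -0.45 and -0.50. Cd86 was at 0.01 without CTR replicate 1 and Tlr4 at 0.11 without COMB replicate 2.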

How the data were processed

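The data are poly-A RNA-seq of 9 libraries, grouped by title. The authors' steps were trimming in Trimmomatic, alignment to mm10 in STAR and duplicate marking in Picard. They deposited raw counts of read pairs per gene from HTSeq, without normalization or filter, and state no annotation release. Genes were matched to GENCODE M21, where 53620 had an entry and 181 had none.

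In R 4.3.3, edgeR 4.0.16 kept 12538 protein-coding genes (filterByExpr, minimum count 10). Scaling was by TMM, and a quasi-likelihood fit had 4 group means and no covariate. The common biological coefficient of variation was 0.214, with 4.15 prior and 5 residual degrees of freedom. P-values were adjusted by Benjamini-Hochberg over all tested genes and called under 0.05. Levels are CPM scaled by TMM, and log2 CPM took a prior count of 2. Each standard error is the absolute log2 effect divided by the square root of its quasi-likelihood F statistic. The spread behind it was estimated over all 9 libraries, and each n gives the libraries of a group.

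Named genes were, among the called genes with a mean of at least 5 CPM, the 15 with the most negative and the 15 with the most positive interaction, or all where fewer. To these came up to 4 called members of each list, else its most abundant member, and genes the study names. Not every gene that the rule gives is described. The other calls, Fos, Junb, Itgam and further single list members were named after values were seen. The 38 lists and their members were chosen with earlier results of these data known.

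Alternatives were DESeq2 1.42.0, limma 3.58.1 (voom with quality weights), other scalings, filters and thresholds, all genes, robust estimation, a replicate block, a loess correction for length and GC content (span 0.5) and leaving out each library. Figures used matplotlib 3.10.9 in Python 3.11.15.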

Additional observations from a re-analysis of the deposited data

Results flagged for a closer look

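The 45 genes called in the interaction differ between groups, 44 of them lower and 1 higher. Most of them are given in the report, many with their levels in each library.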

How the results depend on the processing

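The 44 called genes with a negative interaction kept that sign under all 22 alternatives, but the number of calls did not hold, and the cause was not tested. Alternatives that changed only the threshold could not alter a sign. Against 45 calls, of which 37 reversed, the counts of called and reversed genes were 550 and 197 at an adjusted p under 0.1, 1025 and 212 in DESeq2, 428 and 294 in limma voom, 24 and 23 with library size only, 146 and 97 with no filter beyond 1 count, 18 and 17 with all genes, and 69 and 59 with the length and GC correction. They stayed within 1.5 times with DESeq2 size factors, at least 10 counts per library, robust estimation and a minimum absolute log2 of 1. Without single libraries the calls ranged from 0 to 2734 and the reversed genes from 0 to 386.

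With the replicate number as a block, alone or with the length and GC correction, 0 genes were called in the interaction and 0 reversed in edgeR. In the former the smallest adjusted p was 0.106, and 1560 genes had an unadjusted p under 0.05. No label says that replicate numbers pair the groups, and after removal of group means replicate 1 of any group had an r between -0.349 and 0.0999 with replicate 1 of another.

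For OAT-1746 without the antibody 0 calls became 2438 at an adjusted p under 0.1, 1996 in DESeq2, 587 with no filter beyond 1 count and 28 with the length and GC correction, and 0 to 3617 without single libraries. For OAT-1746 with the antibody 0 calls became 47 in DESeq2, 35 in limma voom and 2 with no filter beyond 1 count, and 0 to 52 without single libraries. With library size only, the median of all genes was -0.11 for the interaction and 0.10 for OAT-1746 without the antibody. The causes were not tested.

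Some genes that were not called reversed, and the cause was not tested. In limma voom the interaction was 0.62 for Irf7, 0.0279 for Ccl2, 0.13 for Cxcr4 and 1.87 for Hbb-bs. With the replicate block it was -0.0585 for Il7r and 0.0803 for Irf7, and with the length and GC correction added -0.13 and 0.0875. Without single libraries it ranged from -0.0698 to 0.33 for Il7r, -0.21 to 0.0111 for Cd86, -1.37 to 0.27 for Gzma, -0.98 to 2.18 for Irf7, -0.26 to 1.87 for Gbp2, -0.69 to 1.92 for Klrk1, -0.50 to 0.57 for Ccl2, -1.66 to 0.20 for Prf1, -0.45 to 0.58 for Cxcr4, -2.05 to 2.64 for Hbb-bs and -1.58 to 0.14 for mt-Co1. Over 109 named genes and all alternatives, 2386 values in all, 1866 kept direction and side of the threshold, 410 lost the call, 81 gained it and 29 changed sign. Values at other thresholds are those of the main fit, so their direction could not change.

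The data are 9 libraries with 2 or 3 per group, so that 1 library carries much of a group mean, and the spread comes from 5 residual degrees of freedom. Genes with few counts, such as Ung and Csrnp2, are known less precisely. Bulk RNA does not separate a change within cells from a change in their mix, and no protein or signaling was measured.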

Other observations

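The mitochondrially encoded genes, of which 7 of 13 were tested, had a median interaction of -0.97, from 1.01 without the antibody and 0.02 with it, and 0 were called in edgeR, DESeq2 or limma voom, with 0 lower and 0 higher at an unadjusted p under 0.05. Without anti-PD-1 replicate 2 the median was -0.26, with 0.78 for the effect with the antibody. Their summed level was 12668 and 10114 CPM in CTR, 22425 and 19604 in OAT-1746, 5536 and 13593 in anti-PD-1, and 12921, 6393 and 7649 in COMB, with mt-Co1 as the most abundant and mt-Atp6, mt-Atp8, mt-Co2, mt-Co3 and mt-Nd4l at 0 in every library. Of 7 erythroid genes 5 were tested, with a median of -1.10 that ranged from -2.05 without anti-PD-1 replicate 2 to 3.34 without OAT-1746 replicate 2, and 0 were called by any of the 3 tools. Hbb-bs was the most abundant.

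When all gene types were tested, 13705 genes entered, of which 1154 were noncoding, and 18 protein-coding and 0 noncoding genes were called in edgeR.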
